A study of Mus musculus with 145 samples.

Results

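A set of 6 genes of the Nodal pathway were followed through the reprogramming of mouse spermatogonial stem cells (SSCs) to germline-derived pluripotent stem cells (gPSCs): *Nodal*, *Gdf3*, *Tdgf1*, *Lefty1*, *Lefty2* and *Smad7*. They were taken by name, and these 6 of the 24615 genes of the STRT-seq table, all of which are also in both scTrio-seq2 RNA tables, were counted in every class of cells. Single cells were sequenced with unique molecular identifiers (UMIs), which count captured transcripts rather than copies made by PCR. The SSCs came from male mice of the first postnatal week, offspring of C57BL/6 females and DBA males, with an EGFP reporter driven by the *Oct4* promoter or EGFP as a transgene, and were kept in medium with EGF, bFGF, GDNF and ESGRO on embryonic fibroblast feeders.

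In the original condition, with no compound added, 46 libraries held 4339 cells picked by mouth pipette from SSC-like and PSC-like colonies between day 0 and day 27. The authors' annotation places these cells in SSC1 to SSC4, in the reprogramming classes RPG1, RPG2, RPG3 and RPG4, and in 4 failed branches named Fibroblast, Early-pluripotency, Meiotic and Neural. The end points were a gPSC line at passage 1 and at passage 15 and an ESC line of the same cross, each 1 library, all kept in N2B27 with GSK3 and MEK inhibitors and ESGRO. In a second experiment, 8 libraries were treated with 5C, a mixture of SGC707, vitamin C, EGCG, daphnetin and TUDCA, and 5 with the vehicle DMSO. There the cells were split at a level of 400 CPM of *Dazl*, a germ cell RNA-binding protein, into Dazl-high and Dazl-low cells.

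Nodal is a ligand of the TGF-beta family that signals through activin receptors and Smad2 and Smad3, and it needs an EGF-CFC co-receptor, of which Tdgf1 (Cripto) is one. Gdf3 is a related ligand that also uses Cripto. The pathway turns on its own genes: *Nodal*, *Lefty1* and *Lefty2* carry enhancers bound by FoxH1 with Smad2 and Smad3, and the Lefty proteins are secreted and block Nodal and its co-receptor. Smad7 is an intracellular inhibitor that occupies the receptor and is itself a target of TGF-beta signals. In the mouse embryo the pathway is known for keeping the epiblast and inducing mesendoderm, and in the testis Nodal and Cripto have been described in germ cells.

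On GRCm38, the build of the files, *Nodal* lies at chr10:61417972-61425338 on the plus strand, *Gdf3* at chr6:122605403-122610087 on the minus strand and *Tdgf1* at chr9:110939603-110946158 on the minus strand. *Lefty2* at chr1:180893108-180899103 and *Lefty1* at chr1:180935022-180938400 are close paralogs on the plus strand with 35919 bases between them, so reads from stretches they share could be assigned to either or dropped. *Smad7* lies at chr18:75367529-75395935 on the plus strand, and all 6 genes are annotated as protein coding.

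The 250 bases before the start of *Nodal* (chr10:61417722-61417971, plus strand) and of *Tdgf1* (chr9:110946159-110946408, minus strand) are shown because the pathway acts back on its own genes, and only these 2 of the 6 genes had a promoter among the RefSeq sequences used (GRCm38.p6). Capitals mark the motif matches named below.

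Nodal: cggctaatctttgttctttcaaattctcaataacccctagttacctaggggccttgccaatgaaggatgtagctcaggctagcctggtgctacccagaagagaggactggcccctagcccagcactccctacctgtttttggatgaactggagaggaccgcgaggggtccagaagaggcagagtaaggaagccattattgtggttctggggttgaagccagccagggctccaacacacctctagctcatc
Tdgf1: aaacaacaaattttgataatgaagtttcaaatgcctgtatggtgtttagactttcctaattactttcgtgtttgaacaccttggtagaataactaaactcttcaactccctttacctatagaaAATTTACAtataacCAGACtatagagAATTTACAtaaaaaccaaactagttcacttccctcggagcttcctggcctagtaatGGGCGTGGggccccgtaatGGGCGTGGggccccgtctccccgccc

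Both strands were searched for the FoxH1 core TGTNNATT, the Smad box CAGAC, the palindromic Smad element GTCTAGAC and the octamer ATTTGCAT. The *Tdgf1* window held 2 FoxH1 cores, read as AATTTACA on the strand shown, at bases 127 to 120 and 101 to 94 before the start, with 1 Smad box between them at bases 113 to 109. Of 32841 mouse promoter windows of this length, 10.9% held at least 1 such FoxH1 core, 1.12% held 2 or more and 42.2% held a Smad box. A GC-rich box, GGGCGTGG, searched only after the sequence had been read, occurred 2 times, at bases 45 to 38 and 26 to 19, and 0.615% of windows held it at least 2 times. Neither GTCTAGAC (in 0.168% of windows) nor ATTTGCAT (in 1.6%) was in the *Tdgf1* window, and the *Nodal* window held none of the 5 motifs. These are matches of letters and were not tested for binding.

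Levels are given in CPM, the UMI counts of a gene relative to all UMIs with TMM scaling, in the cells of one class summed per library, for libraries with at least 5 cells of the class, and they cannot tell fewer positive cells from less RNA per cell. Libraries held 15975410 to 34609591 UMIs in the original condition, 10833720 to 14807169 for gPSCs and ESCs, and 3888311 to 10723044 in the 5C and DMSO experiment. The summed level of 6 spermatogonial markers was 1282 to 2538 CPM in SSC1-4, 1414 to 1736 CPM in RPG1 and 329 to 672 CPM in RPG3, and that of 6 pluripotency markers was 58.9 to 286, 180 to 401 and 1520 to 2079 CPM in the same order. Thus the germ cell markers in RPG1 were within the range of SSC1-4, and RPG2 and RPG3 carried the pluripotent ones (1593 to 2067 CPM in RPG2). Markers of feeder fibroblasts summed to 28.4 to 77.4 CPM in RPG1 and 11.8 to 43.7 in RPG3. The authors drew all classes from these same transcriptomes, so comparisons between classes are not independent evidence of a direction. A gene was called where the edgeR quasi-likelihood test across all genes gave a Benjamini-Hochberg adjusted p below 0.01 and a fold of at least 2.7183 (1.4427 on the log2 scale). The labels do not say that libraries are separate cultures, so the p-values measure the spread between libraries.

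Starting with the ligands, *Nodal* was near the floor in SSC1-4. Over 36 libraries it ranged from 0 to 5.72 CPM with a median of 0.547, and 9 libraries had none. RPG1 reached 1.29 to 9.88 CPM with a median of 3.21 in 7 libraries. In RPG2 the 3 libraries stood at 80.6, 87.4 and 17.9 CPM, and in RPG3 the 8 libraries ranged from 18.8 to 64.9 CPM with a median of 29.9. Every RPG2 and RPG3 library was thus above every RPG1 library. The lowest RPG2 library, replicate 6 of day 14, had 74.2 CPM of endoderm markers, against 12.2 and 1.64 in the others. Its formative epiblast markers summed to 413 CPM, against 283 and 102. The 2 RPG4 libraries, of 8 and 13 such cells, had 76.4 and 69.2 CPM, above all RPG3 libraries. The single libraries gave 82.4 CPM for gPSC at passage 1, 48.7 for gPSC at passage 15 and 126 for ESC, with exact 95% Poisson intervals of 77.3 to 87.7, 44.5 to 53.1 and 120 to 133 that cover counting error only.

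*Gdf3* was detected in SSC1-4 at 0 to 23.9 CPM with a median of 6.13, and in RPG1 at 3.76 to 29.9 CPM with a median of 7.35. RPG2 had 233, 254 and 331 CPM, and RPG3 had 104 to 271 CPM with a median of 207. No RPG2 or RPG3 library overlapped SSC1-4 or RPG1 for this ligand. In RPG4 it stood at 40.4 and 9.85 CPM, below all RPG3 libraries and within or near the range of RPG1. In gPSC at passage 1, gPSC at passage 15 and ESC it was 397, 360 and 471 CPM.

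The co-receptor gene *Tdgf1* was above the median of SSC1-4 in every RPG1 library. SSC1-4 libraries ranged from 0 to 42.1 CPM with a median of 0.562 and 10 at 0. RPG1 libraries ranged from 32.9 to 143 CPM with a median of 59.1, RPG2 had 370, 570 and 542 CPM, and RPG3 had 681 to 957 CPM with a median of 778. The range of RPG1 overlapped that of SSC1-4 and lay below those of RPG2 and RPG3. RPG4 stood at 555 and 557 CPM, gPSC at passage 1 at 552, gPSC at passage 15 at 508 and ESC at 492 CPM, all below the lowest RPG3 library.

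Of the secreted inhibitors, *Lefty1* had no UMI in 22 of the 36 SSC1-4 libraries and 3.26 CPM at most. In RPG1 it was 0.640 to 4.90 CPM with a median of 2.33, in RPG2 28.7, 82.8 and 31.9 CPM, and in RPG3 3.57 to 54.3 CPM with a median of 26.1. The 2 lowest RPG3 libraries, with 3.57 and 4.04 CPM, held 7 and 10 RPG3 cells and overlapped RPG1. RPG4 had 145 and 129 CPM, above every other library measured in the original condition. *Lefty1* in gPSC was 44.3 CPM at passage 1 and 100 at passage 15, and 58.6 CPM in ESC.

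*Lefty2* was at 0 to 7.51 CPM in SSC1-4 with a median of 0.854, and at 0.869 to 12.3 CPM in RPG1 with a median of 5.22. RPG2 had 36, 187 and 104 CPM, and RPG3 spread from 12.1 to 185 CPM around a median of 66.8. RPG4 was split, with 22.5 and 113 CPM. In gPSC, *Lefty2* was 84.5 CPM at passage 1 (95% Poisson interval 79.4 to 89.9) and 358 at passage 15 (347 to 370), and ESC had 281. The passages were 1 library each, so the difference between them has no replicate check.

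*Smad7*, the intracellular inhibitor, was present from the start. SSC1-4 libraries had 1.99 to 97.0 CPM with a median of 15.2, the highest being a day 16 library with 8 such cells and the next reaching 25.9. RPG1 had 17.3 to 41.3 CPM with a median of 27.6, RPG2 212, 57.3 and 58.9 CPM, and RPG3 21.3 to 109 CPM with a median of 26.5. Both extremes, 212 in RPG2 and 109 in RPG3, came from replicate 2 of day 12, where the RPG2 cells held 746 *Smad7* UMIs over 8 of 8 cells and the RPG3 cells held 153 over 6 of 7 cells, 45.8% of them in 1 cell. RPG4 had 10.6 and 20.9 CPM, gPSC 39.3 at passage 1 and 85.6 at passage 15, and ESC 19.3.

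**Figure D1:**
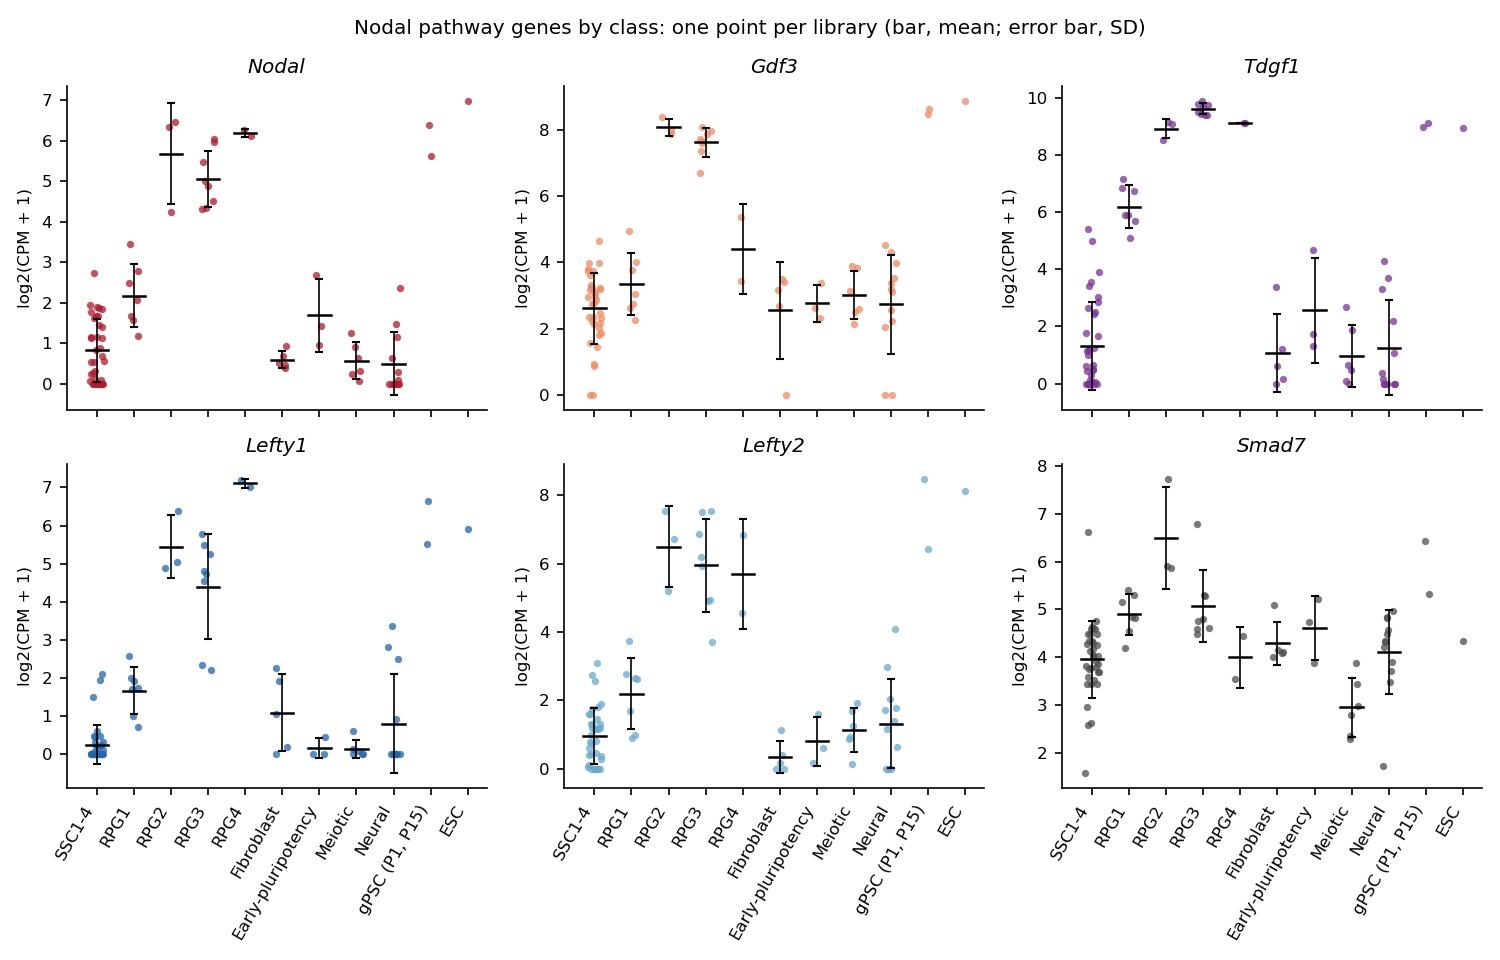
Level of each gene in each library by class, as log2(CPM + 1) on the y axis with 1 panel per gene; points are libraries with at least 5 cells of the class and bars are means over libraries. *Nodal*, *Gdf3*, *Tdgf1*, *Lefty1* and *Lefty2* are lower in SSC1-4 and the failed branches than in most RPG2 and RPG3 libraries, with *Gdf3* at a median of 6.13 CPM in SSC1-4, *Gdf3* is low again in RPG4, and *Smad7* is present in every class.

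By mean level, *Nodal* was ordered ESC, RPG4, gPSC, RPG2, RPG3 and RPG1, *Gdf3* ESC, gPSC, RPG2, RPG3, RPG4 and RPG1, and *Tdgf1* RPG3, RPG4, gPSC, RPG2, ESC and RPG1. *Lefty1* was ordered RPG4, gPSC, ESC, RPG2 and RPG3, and *Lefty2* ESC, gPSC, RPG2, RPG3 and RPG4. The neighbours RPG2 and RPG3 overlapped for every gene but *Tdgf1*, and RPG3 and RPG4 overlapped for *Lefty2* alone. Positions that involve gPSC or ESC rest on single libraries, and that of gPSC is the mean of passages 1 and 15. At passage 1, *Lefty2* (84.5 CPM) was below the means of RPG2 (109) and RPG3 (85.8). *Lefty1* at that passage (44.3 CPM) was below ESC (58.6) and RPG2 (47.8). At passage 15, *Lefty2* (358 CPM) was above ESC (281).

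From SSC1-4 to RPG1, *Tdgf1* was the only gene of the 6 called. It was higher by 4.24 on the log2 scale (SE 0.68, adjusted p = 3.16e-05; mean 80.8 ± 40.5 CPM, SD, n = 7, against 4.12 ± 8.74, n = 36). Over all genes tested, 0.971% were called in this comparison. Of the markers, the pluripotency genes *Nanog* and *Sox2* and the formative gene *Otx2* were also called higher in RPG1. The other members had log2 differences of 2.86 (SE 0.87, adjusted p = 0.0389) for *Lefty1*, 1.94 (SE 0.68, adjusted p = 0.0797) for *Nodal*, 1.74 (SE 0.62, adjusted p = 0.0894) for *Lefty2*, 0.83 (SE 0.30, adjusted p = 0.0900) for *Smad7* and 0.72 (SE 0.41, adjusted p = 0.344) for *Gdf3*. Only 2 libraries held both classes, and there *Tdgf1* was 32.9 CPM in RPG1 beside 30.5 in SSC1-4 of replicate 8 of day 20, and 50.8 beside 42.1 in replicate 1 of day 23. With the library as a block these gave a log2 difference of 0.19 (SE 0.32, adjusted p = 0.998), which ends the call. With counts summed per batch and day, *Lefty2* was called beside *Tdgf1* (5.05, SE 0.87, adjusted p = 2.60e-03). The SSC1-4 cells of the 5 libraries that also held RPG2 to RPG4 cells had 18.6 ± 17.2 CPM of *Tdgf1*, and those of the other 31 libraries 1.78 ± 3.04. Whether RNA passes between cells of a library was not tested.

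The 3 RPG2 libraries were of batch B2 and days 12 and 14, while 5 of the 7 RPG1 libraries were of batch B1 and all of days 18 to 23, so class and day cannot be told apart. From RPG1 to RPG2, all 6 genes rose, where 16.1% of all genes were called and 7.22% were called higher. *Gdf3* rose by 4.63 (SE 0.45, adjusted p = 5.59e-07), *Lefty2* by 4.60 (SE 0.61, adjusted p = 1.75e-05), *Lefty1* by 4.33 (SE 0.53, adjusted p = 8.55e-06), *Nodal* by 3.91 (SE 0.55, adjusted p = 2.96e-05) and *Tdgf1* by 2.64 (SE 0.32, adjusted p = 6.54e-06) on the log2 scale. The median over the 6 genes was 4.12, against -0.06 over all genes tested. *Smad7* rose by 1.88 (SE 0.36, adjusted p = 6.27e-04), but without replicate 2 of day 12 its difference was 0.90 (adjusted p = 0.0443) and was not called, nor was it with batch as a covariate (2.13, adjusted p = 0.0117). With sums per batch and day, *Lefty2* (0.998, adjusted p = 0.621), *Lefty1* (3.59, adjusted p = 0.0147) and *Smad7* (2.36, adjusted p = 0.0115) were not called. Spermatogonial markers were called lower for 5 of 6 and pluripotency markers higher for 6 of 6 in the same comparison.

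From RPG1 to RPG3, 5 of the 6 genes rose, with 20.8% of all genes called and 9.55% called higher. The ligands *Gdf3* and *Nodal* rose by 4.14 (SE 0.37, adjusted p = 6.24e-09) and 3.08 (SE 0.44, adjusted p = 4.64e-06), that is 17.7-fold and 8.43-fold. *Tdgf1* rose by 3.25 (SE 0.24, adjusted p = 4.14e-10), from 80.8 ± 40.5 to 791 ± 106 CPM. The inhibitors *Lefty2* and *Lefty1* rose by 4.18 (SE 0.61, adjusted p = 6.40e-06) and 3.47 (SE 0.55, adjusted p = 1.72e-05), though both overlapped between the classes. *Smad7* differed by 0.30 (SE 0.33, adjusted p = 0.466), and by -0.14 without replicate 2 of day 12. In each of the 7 libraries that held both classes, the 5 genes were higher in RPG3 than in RPG1, and *Smad7* was higher in 3 of the 7. With counts summed per batch and day, which leaves fewer sums, the differences of *Lefty1* (3.01, adjusted p = 0.0133) and *Lefty2* (1.32, adjusted p = 0.423) were not called. Spermatogonial markers were called lower for 5 of 6 between RPG1 and RPG3. Pluripotency markers were called higher for 6 of 6 and formative markers for 3 of 4. The feeder genes *Col1a1* and *Pdgfra*, *Foxa2* and *Nes* were called lower and *Tubb3* higher. The part of these markers was not tested.

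Between RPG2 and RPG3, 0 of the 6 genes were called by edgeR, where 1.03% of all genes were. *Tdgf1* was 0.65 higher in RPG3 on the log2 scale (SE 0.15, adjusted p = 0.0174) with no overlap of libraries, which missed both limits. *Nodal* differed by -0.80 (SE 0.47, adjusted p = 0.371), *Gdf3* by -0.45 (SE 0.21, adjusted p = 0.267), *Lefty1* by -0.82 (SE 0.60, adjusted p = 0.496), *Lefty2* by -0.38 (SE 0.61, adjusted p = 0.801) and *Smad7* by -1.57 (SE 0.48, adjusted p = 0.0708). Without the RPG3 cells of replicate 2 of day 12, *Smad7* was 1.98 lower in RPG3 and was called. DESeq2 also called 0 of the 6, and 2 had an unadjusted p below 0.05. The summed level of 4 formative epiblast markers was 102 to 413 CPM in RPG2 and 768 to 1146 CPM in RPG3.

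From RPG3 to RPG4, *Gdf3* fell by 2.98 on the log2 scale (SE 0.45, adjusted p = 3.57e-04), from 204 ± 52.6 CPM to 25.1 ± 21.6, and was the 1 gene of the 6 called, where 3.23% of all genes were. Leaving out each library in turn gave *Gdf3* differences of -4.28 to -2.26. *Lefty1* differed the other way, by 2.39 (SE 0.57, adjusted p = 0.0134; 137 ± 11.8 CPM, n = 2, against 27.2 ± 17.9, n = 8), just short of the limit. It was called by DESeq2 (adjusted p = 2.99e-03), with no filter on low counts (adjusted p = 4.70e-03), without replicate 2 of day 12 (2.24, adjusted p = 2.61e-03), and over the 2 libraries that held both classes with the library as a block (2.11, adjusted p = 1.44e-06) or without it (2.06, adjusted p = 2.59e-03). It was not called with at least 10 cells, with batch as a covariate, with sums per batch and day or without either RPG4 library, always with the same sign. *Nodal* was 1.09 higher (SE 0.45, adjusted p = 0.140), *Tdgf1* 0.42 lower (SE 0.13, adjusted p = 0.0584), *Smad7* 1.16 lower (SE 0.63, adjusted p = 0.263) and *Lefty2* 0.22 lower (SE 0.75, adjusted p = 0.884), the last with either sign across alternatives. Endoderm markers moved with this step: their sum was 59.6 and 97.3 CPM in RPG4 against 1.47 to 13.2 in RPG3, with *Foxa2* and *Sox17* called higher and *Esrrb*, *Sox2* and *Zfp42* called lower. The same endoderm sum was 40.2 to 81.7 CPM in RPG1 and 0 to 74.5 in SSC1-4, so 1 of the RPG4 libraries lay within both ranges. The 4 neural markers summed to 144 and 139 CPM in RPG4 against 35.3 to 81.5 in RPG3, with *Nes* called higher. Of these 4, *Sox1* and *Pax6* had no UMI in RPG4, and the sum reached 142 CPM in SSC1-4. Of the formative markers *Fgf5* was called higher. The part of these genes in the *Gdf3* result was not tested.

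**Figure D2:**
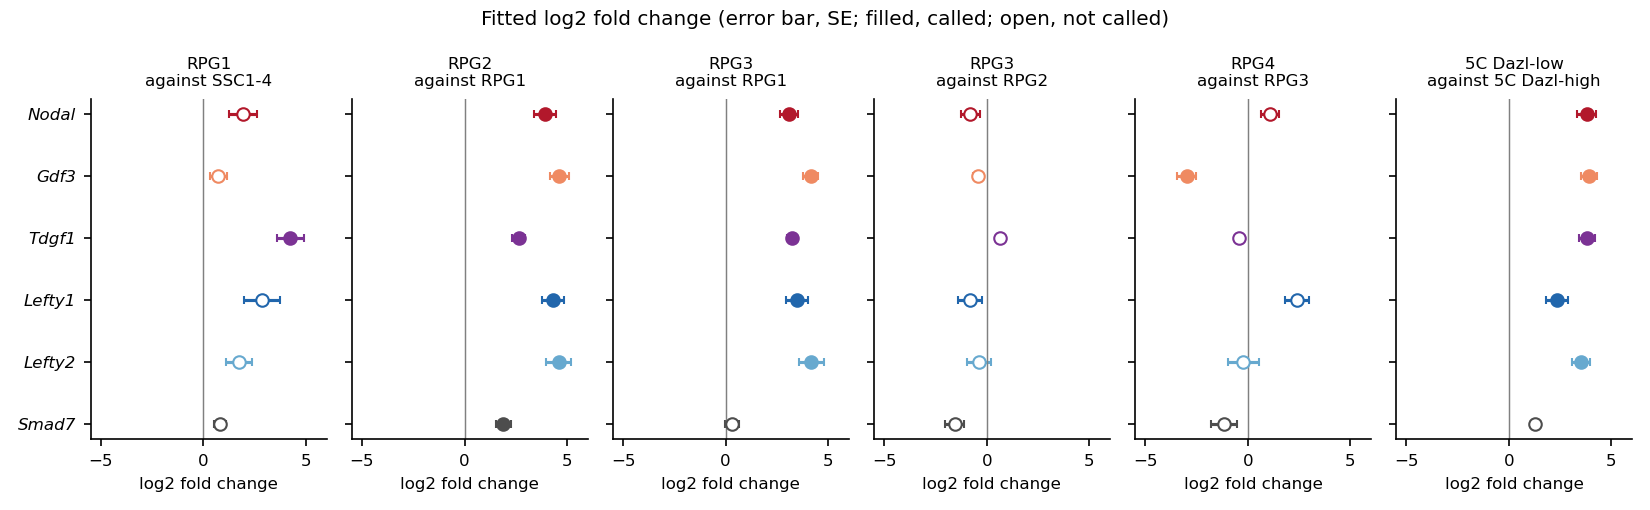
Log2 fold change of the 6 genes in 6 comparisons, with the SE as error bars; filled points were called (adjusted p below 0.01 and at least e-fold) and open points were not. *Nodal*, *Gdf3*, *Tdgf1*, *Lefty1* and *Lefty2* lie above 2 in RPG2 and RPG3 against RPG1 and in 5C Dazl-low against Dazl-high cells, *Smad7* is at 1.88, 0.30 and 1.27 there, and *Gdf3* alone lies far below 0 in RPG4 against RPG3.

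The RPG3 libraries were made in batches that the annotation names B1 (5 libraries) and B2 (3). B2 included libraries of days 12 and 18 and B1 libraries of days 20 and 23, so batch and day cannot be told apart. Between the batches 0 of the 6 genes were called, nor was any other (0%), although 1640 genes had an unadjusted p below 0.05 in edgeR and DESeq2 called 26. *Lefty2* was 1.56 higher in B2 (SE 0.50, adjusted p = 0.247) and *Smad7* 1.34 higher (SE 0.39, adjusted p = 0.225), the latter without overlap.

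In each of the failed branches, 0 of the members tested were called against SSC1-4, by edgeR and by DESeq2. Mean *Tdgf1* was 2.3 CPM in Fibroblast (n = 5), 1.52 in Meiotic (n = 6), 3.74 in Neural (n = 12) and 9.46 in Early-pluripotency (n = 3), where 1 library reached 24.6. *Nodal* means lay between 0.530 and 2.71 CPM and *Gdf3* means between 6.20 and 8.62 CPM. These means lie within the range of SSC1-4 libraries. In Neural, *Lefty1* had a mean of 1.72 CPM and reached 9.21, and *Lefty2* a mean of 2.86 and reached 16, above the highest SSC1-4 libraries (3.26 and 7.51), and 13.9% of thinned Neural cells held a *Lefty1* UMI. *Lefty1* means were 1.56 CPM in Fibroblast, where 1 library with 3.83 CPM also lay above the highest SSC1-4 library, 0.124 in Early-pluripotency and 0.110 in Meiotic, and *Lefty2* means 0.326, 0.894 and 1.36 CPM. Within Fibroblast, *Lefty1* was 3.83 to 11.3 CPM (mean 7.51) in the 3 libraries of the cluster Fibroblast 2, which came next after RPG3 in the order of cluster means and above RPG1, and 0 to 1.17 CPM in the 4 of Fibroblast 1. The 4 neural markers counted summed to 50.4 to 143 CPM in the class the annotation names Neural and to 38.2 to 142 CPM in SSC1-4, so they do not set it apart from the SSCs. The share of all genes called was 3.1% for Fibroblast, 0.216% for Early-pluripotency, 0.152% for Meiotic and 0.943% for Neural. *Lefty1* did not pass the filter on low counts in the Meiotic and Neural comparisons, and *Smad7* in Meiotic (7.40 ± 3.76 CPM) had a log2 difference of -1.19 (SE 0.39, adjusted p = 0.0836), the only member with an unadjusted p below 0.05.

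The classes contributed unequal parts of all UMIs of these genes in the original condition. RPG3 was 6.02% of the cells and held 70.0% of the *Tdgf1*, 54.5% of the *Lefty2*, 53.4% of the *Gdf3*, 44.4% of the *Nodal* and 40.1% of the *Lefty1* UMIs, but 9.36% of those of *Smad7*. RPG4 was 0.761% of the cells and held 35.7% of the *Lefty1* and 15.8% of the *Nodal* UMIs. SSC1-4, with 52.2% of the cells, held 45.0% of the *Smad7* UMIs and 2.19% of the *Tdgf1* UMIs.

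To compare shares of cells with a UMI, each cell was thinned to 100000 UMIs and shallower cells were left out (385 of 2265 in SSC1-4, 48 of 333 in RPG1), while unthinned shares are over all cells. At this depth 12.6% of 1880 SSC1-4 cells held a *Tdgf1* UMI (19% unthinned), against 97.5% of 285 RPG1 cells (99.4%) and all 243 RPG3 cells. *Gdf3* was found in 19.8% of SSC1-4, 49.1% of RPG1, 97.1% of RPG3 and 50% of RPG4 cells, and *Nodal* in 4.73%, 22.1%, 60.9% and 65.6%. The exact 95% intervals for *Gdf3* were 94.2 to 98.8% in RPG3 and 31.9 to 68.1% in RPG4, which cover counting error only, since cells of a library are not independent samples. *Lefty1* was found in 1.6% of SSC1-4, 23.5% of RPG1, 31.3% of RPG3 and 71.9% of RPG4 cells, *Lefty2* in 6.60%, 27%, 65.8% and 65.6%, and *Smad7* in 43.1%, 69.5%, 58.8% and 65.6%. Cells had a median of 248470 UMIs in SSC1-4 and 285700 in RPG3. Only 2 of the 36 SSC1-4 libraries were also counted as RPG1 libraries, so the SSC1-4 shares are no background matched by library, and in these 2 libraries *Tdgf1* in SSC1-4 (30.5 and 42.1 CPM) was close to RPG1 (32.9 and 50.8). In gPSC, *Lefty1* was found in 38.1% of 42 cells at passage 1 and 76.7% of 30 at passage 15, and *Lefty2* in 76.2% and 100%.

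**Figure D3:**
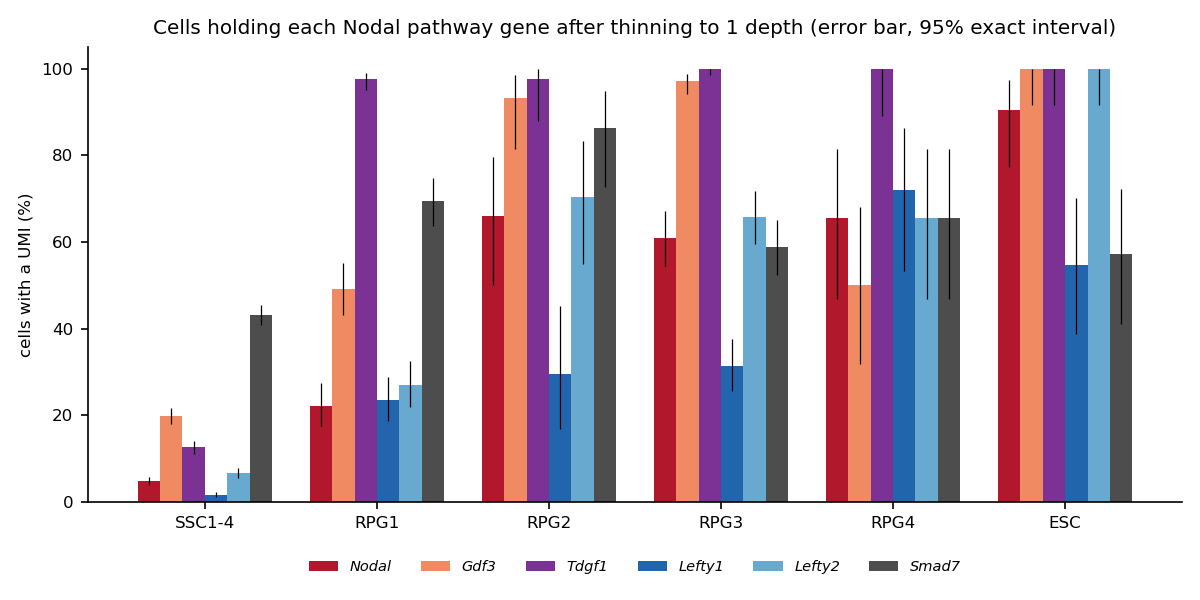
Share of cells with at least 1 UMI of each gene after thinning to 100000 UMIs, in SSC1-4, RPG1, RPG2, RPG3, RPG4 and ESC; error bars are exact 95% binomial intervals over cells. *Tdgf1* is in 97.5% of RPG1 cells and all RPG3 cells, while *Lefty1* is in 31.3% of RPG3 and 71.9% of RPG4 cells.

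Counting *Nodal*, *Gdf3*, *Tdgf1*, *Lefty1* and *Lefty2* together, 64.9% of thinned SSC1-4 cells held none of the 5 and 0 of 1880 held all 5, which allows a share of up to 0.160% of cells with UMIs of all 5 at this depth, by counting error only, and sets no limit on cells that express them. Of RPG1 cells 1.40% held all 5, of RPG3 cells 19.3%, of RPG4 cells 21.9%, of gPSC cells at passage 15 73.3% and of ESCs 50%. The most frequent number in RPG3 was 3 of the 5, in 39.5% of cells.

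Within RPG3 the UMIs of *Lefty1* were concentrated in few cells. Pooled over libraries whose levels differ more for some genes than for others, the tenth of RPG3 cells richest in each gene (25 of 243) held 80.5% of the thinned *Lefty1* UMIs, 51.1% of *Lefty2*, 50.2% of *Smad7* and 41.9% of *Nodal*, against 21.3% of *Gdf3* and 18.1% of *Tdgf1*. The variance over the mean was 21.5 for *Lefty1*, 19.9 for *Lefty2*, 10.2 for *Tdgf1* and 7.03 for *Smad7*. The median RPG3 cell had 75 thinned UMIs of *Tdgf1*, 19 of *Gdf3*, 1 of *Nodal*, 1 of *Lefty2* and 0 of *Lefty1*, while the highest *Lefty1* cell had 51. In the ESC library, 5 of 42 cells had 59.9% of the *Lefty1* UMIs. Over cells of the 6 RPG3 libraries with at least 20 cells, Pearson's r between *Lefty1* and *Lefty2* had a median of 0.33, ranging from -0.04 to 0.53, and that between *Nodal* and *Lefty1* a median of 0.24, ranging from -0.04 to 0.30. The median r of every other pair was between -0.17 and 0.17. Cells of a library share its preparation and these counts are sparse.

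In the 5C experiment the Dazl split gave 158 Dazl-low and 566 Dazl-high cells with 5C, and 159 and 206 with DMSO, with 14 of 1089 cells between 320 and 500 CPM of *Dazl*. Dazl-low cells carried the pluripotency markers, at 1815 to 2518 CPM summed in the 5C libraries and 3054 and 3077 in the DMSO libraries. The Dazl-low cells of 5C replicate 3, 7 in number, stood apart with 412 CPM of endoderm markers against 3.79 to 22 in the other 5 libraries, of which *Gata6* was 308 CPM and *Gata4* 97.2.

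Between Dazl-low and Dazl-high cells of the same 6 libraries with 5C, 5 of the 6 genes were called higher, with 15.4% of all genes called and 6.19% called higher. Spermatogonial markers, *Dazl* among them, were called lower for 5 of 6 and pluripotency markers higher for 6 of 6. *Dnmt3b*, *Otx2* and *Tubb3* were called higher and *Pou3f1*, *Foxa2* and *Nes* lower. The part of these markers was not tested. *Nodal* stood at 29.6, 0, 56.3, 47.5, 42.0 and 14.7 CPM in the Dazl-low cells of replicates 1, 3, 5, 6, 7 and 8, and at 0.159 to 3.81 CPM in Dazl-high cells of all 8 libraries. It was higher by 3.78 (SE 0.46, adjusted p = 3.00e-06) and in 5 of 6 libraries, the exception being replicate 3 with 0 of 592644 UMIs. Without that library the difference was 3.90 (adjusted p = 5.87e-07). *Gdf3* was 98.1 to 228 CPM against 0.953 to 43.5 (log2 3.90, SE 0.39, adjusted p = 2.76e-07), and *Tdgf1* 383 to 729 CPM with a median of 506 against 3.49 to 117 with a median of 33.8 (log2 3.80, SE 0.40, adjusted p = 5.85e-07). Neither of these overlapped.

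*Lefty2* was 51.9 to 290 CPM with a median of 136 in Dazl-low cells and 1.59 to 18.1 in Dazl-high cells (log2 3.52, SE 0.45, adjusted p = 5.42e-06). *Lefty1* was 4.93 to 67.7 CPM with a median of 15.6 against 0.156 to 8.90 (log2 2.36, SE 0.54, adjusted p = 1.58e-03), and the sides overlapped. *Smad7* was 66.7 to 118 CPM in Dazl-low and 22.7 to 49.2 in Dazl-high cells without overlap, but its difference of 1.27 (SE 0.22, adjusted p = 1.37e-04) was under the fold needed for a call. Without replicate 5, which held 57 of the 157 Dazl-low cells compared, *Lefty1* (2.24, adjusted p = 0.0173) was not called and *Nodal* did not pass the filter on low counts. At a *Dazl* split of 800 CPM, *Nodal* did not pass that filter either, and 4 of the 6 genes were called.

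**Figure D4:**
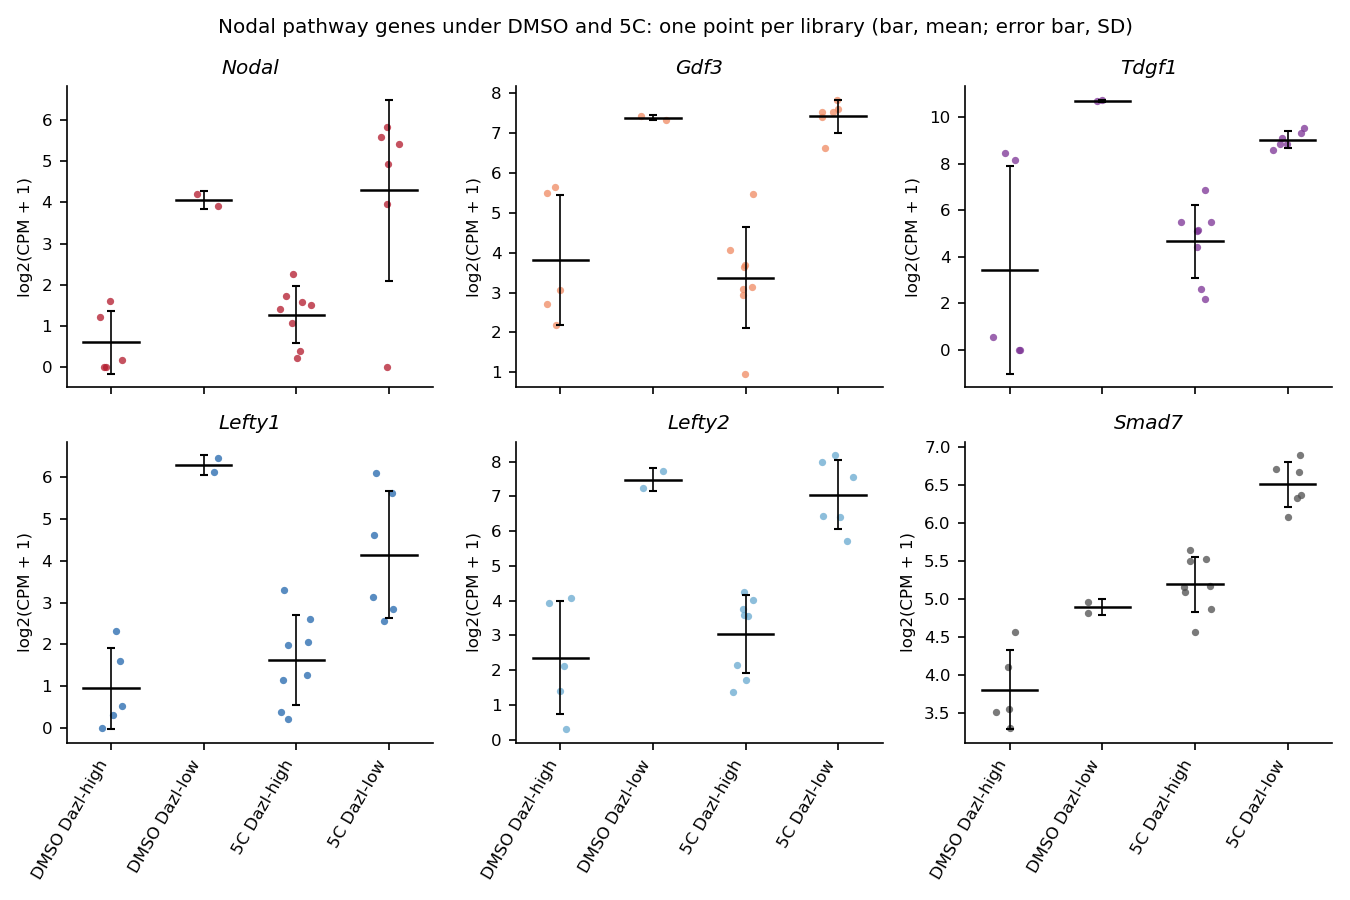
Level of each gene per library, as log2(CPM + 1), in Dazl-high and Dazl-low cells with DMSO and with 5C; points are libraries with at least 5 cells on that side. *Tdgf1* in Dazl-low cells is 383 to 729 CPM with 5C and 1637 and 1703 CPM with DMSO, and *Smad7* is 66.7 to 118 CPM with 5C and 27.2 and 30.2 CPM with DMSO.

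Within Dazl-low cells, 2 of the 6 genes were called between 5C and DMSO, where 2.66% of all genes were. *Tdgf1* fell by 1.66 on the log2 scale with 5C (SE 0.18, adjusted p = 2.29e-05), from 1637 and 1703 CPM in the 2 DMSO libraries to 383 to 729 CPM. *Smad7* rose by 1.65 (SE 0.30, adjusted p = 1.59e-03), from 27.2 and 30.2 to 66.7 to 118 CPM. Neither overlapped, but *Smad7* was not called without DMSO replicate 1 (adjusted p = 0.0504) or 2 (adjusted p = 0.0376), and neither *Tdgf1* (-1.10, adjusted p = 0.728) nor *Smad7* (1.92, adjusted p = 0.0792) was called at a *Dazl* split of 800 CPM. Of the marker genes, *Dazl*, which was used for the split, and the endoderm gene *Foxa2* were called higher with 5C, and the formative gene *Otx2* lower. Formative markers summed to 447 to 859 CPM with 5C and to 887 and 893 with DMSO, spermatogonial markers to 434 to 603 against 344 and 382, and pluripotency markers to 1815 to 2518 against 3054 and 3077. The part of these genes in the *Tdgf1* and *Smad7* results was not tested. *Lefty1* was lower by 1.52 (SE 0.70, adjusted p = 0.157; 86.5 and 68.5 CPM with DMSO), *Nodal* higher by 1.02 (SE 0.75, adjusted p = 0.395; 14 and 17.6 CPM), and *Gdf3* (0.05, SE 0.25, adjusted p = 0.917; 161 and 173 CPM) and *Lefty2* (-0.23, SE 0.48, adjusted p = 0.797; 151 and 210 CPM) differed by less than their SE. The 5C libraries were collected on days 12, 14 and 16 and the DMSO libraries on days 20 and 24 with some cells of day 0, so treatment and day cannot be told apart. The 2 DMSO libraries with Dazl-low cells share a name prefix in the files, and the labels do not say that they are separate cultures.

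Within Dazl-high cells, *Smad7* was the only gene of the 5 tested that was called, with 4.38% of all genes called. It was 22.7 to 49.2 CPM in 8 libraries with 5C and 16.2, 22.7, 10.8, 10.4 and 8.83 CPM in DMSO replicates 1 to 5, a rise of 1.53 (SE 0.29, adjusted p = 7.34e-04). *Tdgf1* was 351 and 281 CPM in the DMSO replicates 1 and 2, which also held Dazl-low cells, and 0, 0 and 0.465 CPM in the other 3. Its difference of -1.57 (SE 1.07, adjusted p = 0.307) therefore rests on those libraries: without them it was 8.08 (adjusted p = 8.29e-05). *Gdf3* and *Lefty2* followed the same split, with 44.4 and 49.3 against 3.53 to 7.41 CPM, and 14.1 and 16 against 0.232 to 3.31 CPM. Pluripotency markers in these Dazl-high cells moved with them, at 654 and 469 against 91.2 to 205 CPM, and their part was not tested. *Smad7* was not called without 5C replicate 1 (1.43) or DMSO replicate 5 (1.41), and *Nodal* was too low to be tested.

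Beyond the 6 genes, 43 other genes of the pathway were counted, of which 42 were in the STRT-seq table and 36 in both scTrio-seq2 tables. From RPG1 to RPG3, 3 of 32 tested rose and 7 fell, where 9.55% of all genes were called higher and 20.8% either way, so the share that rose is near that of all genes. *Foxh1*, the DNA-binding partner of Smad2 and Smad3, went from 4 UMIs over all RPG1 libraries to 207 in RPG3 (0.0557 to 2.89 CPM; log2 5.50, SE 0.91, adjusted p = 3.14e-05). *Pcsk6*, a convertase that cleaves the Nodal precursor, rose from 3.29 to 17.8 CPM (log2 2.41, SE 0.58, adjusted p = 1.48e-03). *Ppm1a*, a phosphatase that acts on Smad2 and Smad3, rose from 24.4 to 166 CPM (log2 2.73, SE 0.21, adjusted p = 4.99e-10).

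Of the 7 that fell, 4 were mesendoderm genes that Nodal signals induce in the embryo, of which 5 were tested. *Lhx1* fell by 3.93 on the log2 scale, from 146 to 10.7 CPM, *T* by 3.60, *Foxa2* by 3.58 and *Mixl1* by 3.41. All 4 were already detected in SSC1-4, with means of 47.6 CPM for *Lhx1*, 31.2 for *Foxa2*, 10.8 for *T* and 4.81 for *Mixl1*. Whether Nodal signals acted on these 4 genes in these cells was not tested. The inhibitory *Smad6* fell by 3.31, the Smad repressor *Ski* by 1.47 and the co-receptor *Tgfbr3* by 2.54. Of the receptors and transducers tested in RPG3 against RPG1, none other than *Tgfbr3* and *Foxh1* was called, while *Smad2* was 1.09 lower in RPG3 (SE 0.18, adjusted p = 3.24e-05) and missed only the fold. From RPG1 to RPG2, 3 of 34 rose, *Inhbb*, *Pcsk6* and *Ppm1a*, and 6 fell, where 7.22% of all genes were called higher and 16.1% either way, and between RPG2 and RPG3 0 of 31 were called by edgeR (1.03% of all genes). From SSC1-4 to RPG1, 1 of 35 was called, *Lhx1*, which was higher in RPG1 (0.971% of all genes), and against SSC1-4 6 of 37 were called in Fibroblast, all higher (3.1%). Feeder fibroblast markers moved with these, at 243 to 1331 CPM in Fibroblast against 16.2 to 147 in SSC1-4 with *Col1a1*, *Col1a2* and *Col3a1* called higher, and their part in the result was not tested. In 5C against DMSO, 1 of 27 was called in Dazl-low cells, *Foxa2* (2.66%), and 2 of 31 in Dazl-high cells, *Tgfb1* and *Lhx1* (4.38%), all higher with 5C. The genes named for these 4 comparisons were chosen after their values were seen.

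From RPG3 to RPG4, 4 of 36 rose and 0 fell, where 3.23% of all genes were called. Of these, 3 were mesendoderm genes: *Eomes* rose from 8.10 to 96.9 CPM (log2 3.65, SE 0.46), *Fgf8* from 0.842 to 64.0 (log2 6.31, SE 0.70) and *Foxa2* from 4.81 to 45.1 (log2 3.37, SE 0.68). The other was *Fst*, the activin antagonist follistatin, from 2.71 to 118 CPM (log2 5.41, SE 0.65). *Foxa2* is also on the list of endoderm markers. In 5C cells, where 15.4% of all genes were called, 1 of 25 was higher in the Dazl-low side, *Pcsk6* by 2.63, and 4 were lower, *Smad6*, *T*, *Foxa2* and *Lhx1*, the last by 4.74.

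**Figure D5:**
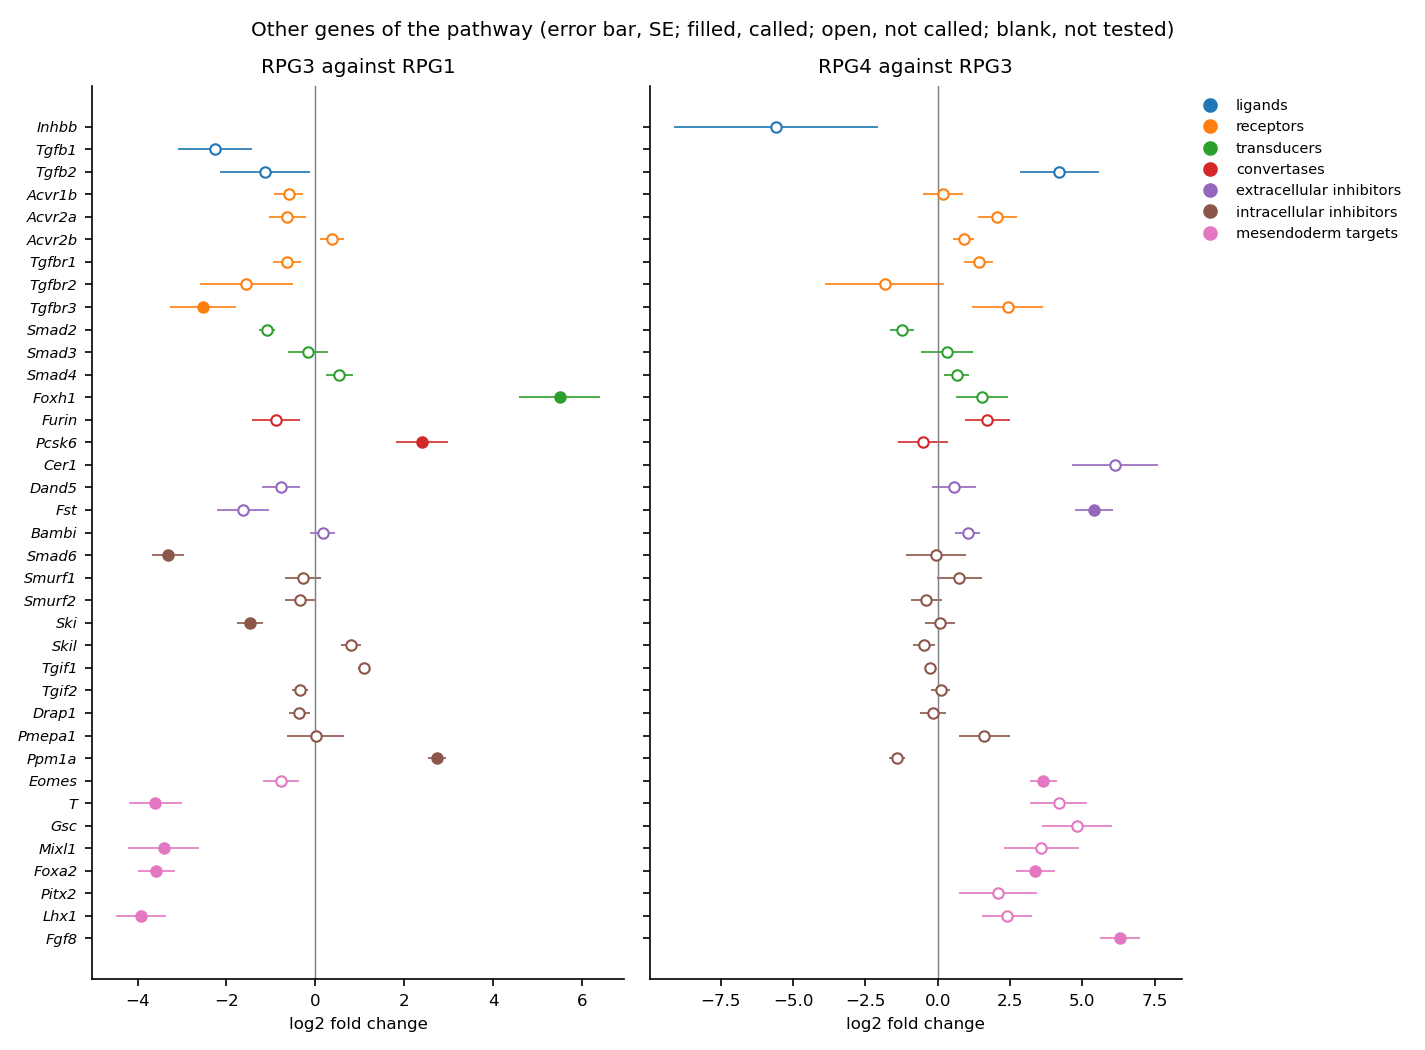
Log2 fold change of the other pathway genes tested, in RPG3 against RPG1 and in RPG4 against RPG3, grouped by role, with the SE as error bars and called genes filled. *Foxh1*, *Pcsk6* and *Ppm1a* lie above 0 and the mesendoderm genes below 0 in the first comparison, and *Fst*, *Eomes*, *Foxa2* and *Fgf8* lie above 0 in the second.

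Across the 17 clusters of the original condition with at least 1 such library, the genes whose mean level followed each member most closely were taken by Pearson's r among 14758 genes, as a description over points that share libraries. *Tdgf1* was most like *L1td1* (r = 0.983), *Platr10* (0.963) and *Nanog* (0.961). *Nodal* was most like *Gmfg* (0.973), *Eras* (0.967) and *Mup6* (0.967), and *Gdf3* most like *Tdh* (0.961), *Slc28a1* (0.957) and *Fut9* (0.957). *Lefty2* was most like *Gm26829* (0.985), *Qrich2* (0.973) and *Zscan10* (0.963), *Lefty1* most like *Mzt2* (0.941), *Gpd2* (0.934) and *Gm37245* (0.926), and *Smad7* most like *Abca7* (0.877), *Mavs* (0.856) and *Vsig2* (0.855). Among the members themselves, *Nodal* and *Lefty2* had r = 0.935 and *Nodal* and *Tdgf1* 0.920, while *Nodal* and *Smad7* had 0.559.

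Of the nearest annotated neighbours, those of *Tdgf1* and *Gdf3* that were called are given. *Lrrc2*, 5387 bases from *Tdgf1* on the opposite strand, rose by 3.91 from RPG1 to RPG3 (10.5 to 163 CPM) and fell by 4.92 from RPG3 to RPG4 (to 4.56 CPM), the step at which *Tdgf1* was not called. *Apobec1*, 2959 bases from *Gdf3* on the same strand, rose by 1.48 from RPG1 to RPG3. From RPG3 to RPG4, the step at which *Gdf3* fell, *Apobec1* differed by -3.31 (22.6 to 2.34 CPM) and was not called. The other neighbours tested were not called in either comparison, where 20.8% and 3.23% of all genes were called.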

How the data were processed

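For the modified STRT-seq libraries and the RNA arm of scTrio-seq2, the deposited values are raw UMI counts of genes in single cells. Per the labels and the study's methods, barcodes and UMIs were extracted with UMI-tools, reads were aligned to mm10 with STAR (2.7.2b) and assigned to genes with featureCounts (2.0.0). Counting by strand and the annotation release are not given in the sources used here. Methylation and PBAT files were not used here.

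Counts were summed per library and class (at least 5 cells) with Python 3.11.15, numpy 2.4.6, pandas 2.3.3 and scipy 1.17.1, taking classes from the authors' annotation, and 0 columns belonged to other series. No 2 cells had identical counts. Sums were tested in R 4.3.3 with edgeR 4.0.16 (TMM, filterByExpr, glmQLFit, glmQLFTest), with DESeq2 1.42.0 as an alternative. The SE is the log2 fold change divided by the square root of F. The scripts were tested on simulated data. Classes of one library are paired by that library. Deviations from class means correlated between the RPG1 and RPG3 sums of a library with r of 0.101 to 0.410 over 7 pairs, and between the Dazl-low and Dazl-high sums with 0.0989 to 0.154 over 6. The latter fit has the library as a block. Over 2 pairs each, r was 0.0943 and 0.118 for RPG1 and SSC1-4, and 0.0435 and 0.0509 for RPG4 and RPG3, where 0 of 2 libraries correlated best with their own.

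The 6 genes, the 43 other pathway genes and the marker lists were chosen with earlier results of these data known. All 6 members are named, other pathway genes where called in RPG3 against RPG1, RPG4 against RPG3 or 5C Dazl-low against Dazl-high cells (those named for other comparisons were chosen after their values were seen), and for each member the 3 genes most like it across 17 of 18 clusters with a mean of at least 5 CPM in one of them, since Neural 4 had no library of 5 cells. The alternatives tried were other scaling, DESeq2, filters, cell minimums, a looser threshold, batch terms, blocks, other *Dazl* splits (200 and 800 CPM) and leaving out each library. Intervals and floors (3 counts) cover counting error only.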

Additional observations from a re-analysis of the deposited data

Results flagged for a closer look

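Of 42 groups of 4 to 10 libraries examined, 7 had a library far from the others, in 5 libraries, where chance gives about 1 group in 20. In RPG3, *Smad7* in replicate 2 of day 12 was 109 CPM, against 21.3 to 38.4 in the other 7, from 7 cells. In 5C Dazl-high cells, replicate 1 had 117 CPM of *Tdgf1*, against 3.49 to 44.5 in the other libraries, and 43.5 CPM of *Gdf3*, against 0.953 to 15.7. Pluripotency markers in the same cells summed to 796 CPM, against 137 to 394 in the other libraries. In Fibroblast cells, replicate 2 of day 14 had 9.52 CPM of *Tdgf1*, against 0 to 1.31, and 1.18 CPM of *Lefty2*, against 0 to 0.315, and replicate 5 of day 27, with 6 cells, had 32.9 CPM of *Smad7*, against 15.2 to 16.7. In Meiotic cells, *Lefty1* in replicate 2 of day 16 was 0.510 CPM, from 10 UMIs, against 0 to 0.0934. The causes were not tested.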

How the results depend on the processing

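The calls of *Nodal*, *Gdf3* and *Tdgf1* held under all 25 alternatives run for RPG3 against RPG1 and all 17 for RPG2 against RPG1, that of *Gdf3* under all 19 for RPG4 against RPG3, and those of *Gdf3*, *Tdgf1* and *Lefty2* under all 14 for 5C Dazl-low against Dazl-high cells. The number of members called changed as follows, and causes were not tested. In RPG1 against SSC1-4 it was 2 at an adjusted p below 0.05 with no minimum fold, 2 with sums per batch and day, and 0 over the 2 libraries that hold both classes, with the library as a block or without it. Sums per batch and day gave 3 for RPG2 against RPG1 and 3 for RPG3 against RPG1. In RPG3 against RPG2 it was 1 at the looser threshold, and 0 to 1 when each library was left out. In RPG4 against RPG3 it was 2 at the looser threshold, with no filter, with DESeq2, with the library block and over the block's libraries without it, and 1 to 2 when each library was left out. In 5C Dazl-low against Dazl-high cells, leaving out each library gave 3 to 6. In Dazl-low cells, 5C against DMSO gave 0 at a *Dazl* split of 800 CPM, and 1 to 2 without each library. In Dazl-high cells it gave 0 with the replicate number as a block, 2 without the DMSO libraries that hold Dazl-low cells, and 0 to 1 without each library. The replicate numbers of 5C and DMSO do not mark pairs: the deviations of same-numbered libraries correlated with r of -0.107 to 0.0721 over 5 pairs. The block with the library changed no other call. No paired analysis was possible for RPG2 against RPG1, RPG3 against RPG2 and 5C against DMSO in Dazl-low cells because these share fewer than 2 libraries or numbers.

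Signs of uncalled log2 differences turned in these fits. In RPG1 against SSC1-4, *Gdf3* was -0.75 with the block and -0.73 over its libraries without it, and *Lefty2* -0.44 and -0.15. In RPG3 against RPG1, *Smad7* was -0.13 with the block, and -0.14 over its libraries, with at least 10 cells and without replicate 2 of day 12 (-0.14 to 0.40 without each library). In RPG3 against RPG2, *Lefty2* was 0.40 with batch as a covariate and 0.28 per batch and day (-0.81 to 0.26 without each library). In RPG4 against RPG3, *Lefty2* was 0.75 with at least 10 cells, 0.91 with the block, 1.31 over its libraries, 0.56 with batch and 0.80 per batch and day (-1.84 to 0.50). In Dazl-low cells, 5C against DMSO, *Gdf3* was -0.037 with at least 10 cells, and the same with a minimum of UMIs as well (-0.034 to 0.18 without each library), and *Lefty2* 0.34 at a split of 800 CPM (-0.46 to 0.024). In Dazl-high cells, *Gdf3* was 0.64 at that split and 1.22 without the DMSO libraries that hold Dazl-low cells (-1.17 to 0.15), and *Tdgf1* 0.76 with the number as a block and 8.08 without those DMSO libraries. The Dazl-low sums of 592644 UMIs and up and the RPG4 sums of 8 and 13 cells limit what their comparisons can show. The alternatives by batch and day, by block libraries without the block and without DMSO libraries were chosen after seeing the data.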
